A study of Mus musculus with 4 samples.

Results

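The genes described here are 10 genes whose products the liver secretes into the blood: Alb, Afp, Apoa1, Apoa2, Apob, Ttr, Fga, Fgb, Ahsg and Serpina1a. They were taken by name, as genes with mostly tissue-restricted promoters, to give a rate of peak calls at genes that limb cells are not known for. All 10 were found among the 22367 protein-coding genes that GENCODE M1 places on the assembled mouse chromosomes (build mm9). Chromatin accessibility had been profiled by ATAC-seq, in which the Tn5 transposase cuts and tags open DNA, in cells from forelimbs and hindlimbs of mouse embryos at E11.5. Embryos of c57bl6.J X 129S6.sv background were either wild type (2 libraries) or mutants with an inserted stop cassette (2 libraries), a construct that ends transcription early. The series concerns the long non-coding RNA locus Maenli and its dependent gene En1. The labels give neither the place of the cassette nor whether embryos were pooled. Nothing in them says that replicates came from separate embryos, so p-values measure the spread between these libraries, which may be technical. In the peak names, both wild-type libraries have the same replicate number and differ in a second digit, although the labels call them separate replicates. Both wild-type libraries may therefore come from 1 sample, in which case each wild-type SD and each p-value below counts libraries and not samples.

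Albumin, alpha-fetoprotein and transthyretin carry hormones, fatty acids and other small molecules in plasma. The apolipoproteins build lipoprotein particles, the fibrinogen chains form clots, and fetuin-A (Ahsg) and the antitrypsin encoded by Serpina1a bind mineral and inhibit proteases. In hepatocytes and yolk sac endoderm such genes are driven by short promoters and enhancers that bind HNF4, forkhead and C/EBP factors. Many of these promoters hold few CpG dinucleotides, whereas promoters of widely expressed genes usually lie in CpG islands and are open in most cell types.

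The promoters of 4 of the genes are printed: Apob and Fga, the only ones with a summit within 1 kb of any annotated start, and the neighbours Alb and Afp, which had none. As for all 10 genes, no list held a summit within 1 kb of the first start. Each run is the sequence just before the most upstream annotated start, read 5′ to 3′ from mm9. Capitals mark matches, on either strand, to a TATA box, a C/EBP site, a forkhead site, an HNF4 core or a CCAAT box.
Alb, chr5:90889795-90889914, plus strand: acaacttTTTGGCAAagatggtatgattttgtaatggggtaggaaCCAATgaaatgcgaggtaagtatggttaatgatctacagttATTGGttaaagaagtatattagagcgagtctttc
Afp, chr5:90919620-90919739, plus strand: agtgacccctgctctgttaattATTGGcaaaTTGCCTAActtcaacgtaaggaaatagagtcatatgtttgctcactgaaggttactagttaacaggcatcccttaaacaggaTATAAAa
Fga, chr3:82829935-82830074, plus strand: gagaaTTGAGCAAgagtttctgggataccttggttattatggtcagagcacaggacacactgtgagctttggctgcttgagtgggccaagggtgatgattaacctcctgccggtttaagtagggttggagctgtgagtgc
Apob, chr12:7984334-7984453, plus strand: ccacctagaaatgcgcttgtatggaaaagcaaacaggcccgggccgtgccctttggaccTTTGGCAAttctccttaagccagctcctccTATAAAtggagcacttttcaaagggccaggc

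Promoters of near neighbours that were called in all 4 lists are printed next, and capitals in these sequences mark CpG dinucleotides. Plrg1, a spliceosome component gene, starts 5719 bp from the Fgb start, and its printed stretch holds 14 CpGs. Tomm40l, which encodes a protein related to a mitochondrial import channel, starts 2540 bp from Apoa2, and its printed stretch holds 1. The printed stretches of Afp and Fga also hold 1 each, so only Plrg1 stands apart in CpG number. Plrg1 and Tomm40l had summits at their starts in all 4 lists.
Plrg1, chr3:82859324-82859443, plus strand: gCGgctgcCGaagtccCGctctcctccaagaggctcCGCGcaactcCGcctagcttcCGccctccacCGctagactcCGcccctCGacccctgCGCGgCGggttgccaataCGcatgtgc
Tomm40l, chr1:173152646-173152765, minus strand: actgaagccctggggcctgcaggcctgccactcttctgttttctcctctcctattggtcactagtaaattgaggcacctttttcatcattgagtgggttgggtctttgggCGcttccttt

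In the 250 bases before the start, a match to the C/EBP site, searched as TTGCNNAA, was present in 6 of the 10 liver genes (Alb, Afp, Apob, Fga, Fgb and Ahsg) and in 9.16% of the 22362 protein-coding promoters that could be read. A TATA box, TATAAA, was found in 3 of 10 (Afp, Apoa2 and Apob) and in 12.3% of all promoters, and the letters CCAAT in 6 of 10 and in 35.0%. The forkhead site, TGTTTAC, was found in Apoa2 alone of the 10 and in 2.74% of all promoters. The HNF4 core, CAAAGTCC, was found in 0 of 10 and in 1.27%. In Alb a pair of CCAAT boxes lay on opposite strands, 75 to 71 and 34 to 30 bases before the start. In Apob the TATA box lay 31 to 26 bases before the start. In Afp it ended 2 bases before the annotated start, and in Apoa2 it lay 212 to 207 bases before the start. The searched motifs did not overlap each other in the printed stretches, and a match describes letters only. The median GC content of the 250 bases was 45.8% in the liver genes and 54% over all promoters. The motif shares were not matched for base composition.

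The question put to the peak lists was how often such genes are called open in limb cells. A peak summit was counted at a promoter when it lay within 1 kb of any annotated start of the gene. Among the liver genes, 1 of 10 was called in stop cassette replicate 1, where 61.5% of all protein-coding genes were called. In stop cassette replicate 2 it was 2 of 10, against 64.5% of all genes. Wild-type replicate 1 called 2 of 10, against 59.1%, and wild-type replicate 2 called 0 of 10, against 61.6%. The rate of calls at these genes was therefore 0% to 20% per list. In bulk cells, a summit from a few open cells and one from slight opening in many cannot be told apart. In all, 2 of the 10 genes (Apob and Fga) were called in at least 1 list, against 65.5% of all genes, and 0 of 10 in all 4 lists, against 57.5%. The other 8 shared the lack of a call in every list with 7719 protein-coding genes (34.5%), the 8 included.

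Neither of the called genes had its summit within 1 kb of the first annotated start. When only the most upstream start of each gene was used, 0 of 10 were called in any of the 4 lists, whereas 58.3% and 61.1% of all genes were in the stop cassette lists and 55.8% and 58.3% in the wild-type lists. All of the 10 were thus without a call there, as were 37.6% of all genes. That setting was chosen after the values had been seen. With a stricter score threshold, the median of the 4 lists pooled, 0 of 10 were called too, against 61.3% of all genes in at least 1 list. The Apob summit of stop cassette replicate 2 missed that threshold narrowly, with a score of 5.8308 against 5.83427. At 500 bp from a start, 1 of 10 (Fga) was called, against 63.9%. With every list reduced to the length of the shortest, it was 2 of 10, against 62.7%.

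**Figure D1:**
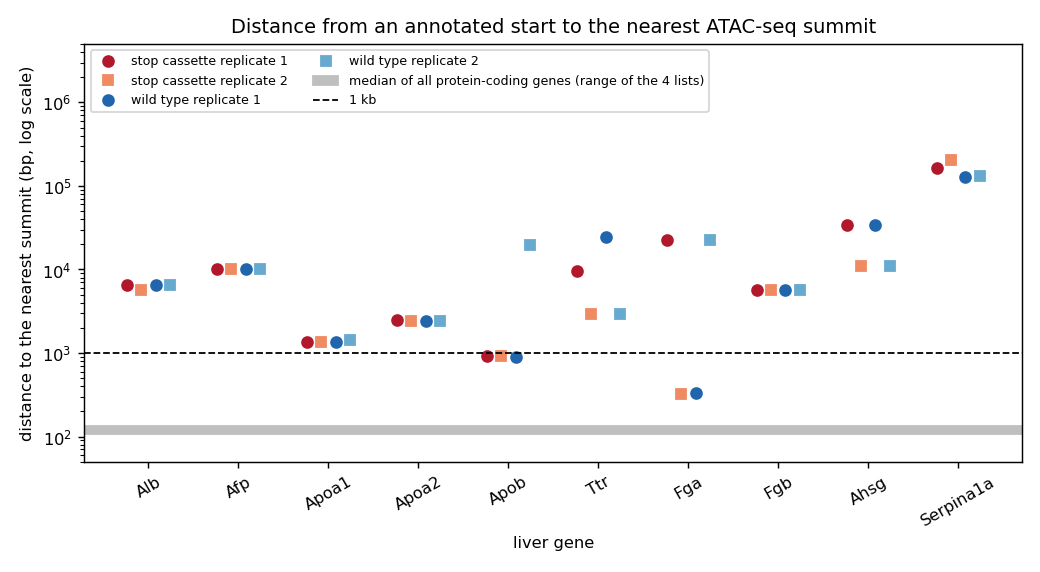
Distance in bp (log axis) from the nearest annotated start of each liver gene to the nearest summit, 1 point per library; the dashed line is 1 kb and the grey band spans the medians of all protein-coding genes in the 4 lists, 108 to 134 bp. Points under the dashed line occur for Apob in 3 lists and Fga in 2, and Serpina1a lies farthest out in all 4.

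Apob encodes the scaffold protein of chylomicrons and low-density lipoprotein, and it starts at position 7984454 of chromosome 12 on the plus strand (ENSMUSG00000020609.8, to 8023641). A summit lay 918 bp from a start in stop cassette replicate 1, 924 bp in stop cassette replicate 2 and 893 bp in wild-type replicate 1. The start in question is that of transcript Apob-004, 131 bp downstream of the first. From the first start, the summits lay 1049, 1055 and 1024 bp downstream, inside an intron and just beyond 1 kb. Wild-type replicate 2 had no summit there, and its nearest one was 19427 bp from a start. Apart from the stricter threshold, peak scores were compared only as a percentile within each list, from the weakest to the strongest summit. The Apob summit had percentile 36.8 in stop cassette replicate 1, 47.8 in stop cassette replicate 2 and 4.54 in wild-type replicate 1. It was thus below the median of each list that held it. Both stop cassette values were above the wild-type one, in lists of different length, and no difference between genotypes is read from such ranks. The protein-coding genes with the most similar pattern, by the summed difference in best promoter percentile over the 4 lists, were Pgm5 (0), Ang6 (4.54) and Gigyf1 (4.54).

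Fga encodes the fibrinogen alpha chain and lies on chromosome 3 from 82830075 to 82838036 (ENSMUSG00000028001.9, plus strand). Its summit was in a coding exon, 319 bp from a start in stop cassette replicate 2 and 332 bp in wild-type replicate 1. That start belongs to the short transcript Fga-202, 6604 bp downstream of the first start. Stop cassette replicate 1 and wild-type replicate 2 had no summit there, and their nearest summits were 22661 and 22681 bp from a start. The percentiles were 19.7 and 46.6, so the call came from 1 library of each genotype. By the same measure as for Apob, the genes most like Fga were Sptlc3 (3.67), Grik3 (9.76) and Klhl4 (19.7).

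Just outside 1 kb stood Apoa1, which encodes the main protein of high-density lipoprotein (chromosome 9, 46036663 to 46038549, ENSMUSG00000032083.8). Its nearest summit was 1355, 1357, 1352 and 1441 bp from a start, in the order stop cassette replicates 1 and 2, then wild-type replicates 1 and 2. All 4 lists held it, in a coding exon of this short gene, at the 76.8, 87.2, 24.6 and 75.8 percentiles. At a limit of 2 kb, 3 of the 10 genes were called in at least 1 list, Apoa1 being the addition, against 67.5% of all genes.

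Apoa2, another protein of high-density lipoprotein (chromosome 1, 173155185 to 173156510, ENSMUSG00000005681.6), had its nearest summit 2457, 2437, 2421 and 2420 bp upstream in the same order. These were strong summits, at the 97.9, 99.5, 95.8 and 99.3 percentiles, and they lay at the start of Tomm40l. RefSeq (GRCm38.p6) lists 2 promoters for Apoa2. The sequence of the second matched mm9 once, with its start 3490 bp upstream of the GENCODE start. From there the nearest summits were 672 and 660 bp away in the stop cassette lists and 1069 and 1070 bp away in the wild-type lists. The stop cassette summits at 672 and 660 bp had percentiles of 43.3 and 50.3. Both lay in the stretch around the Tomm40l start (173152105 to 173153015) in which all 4 lists held summits. They cannot be assigned to Apoa2 rather than Tomm40l, and no difference between genotypes is read from them. The table held 9 of the 10 genes, and their other RefSeq starts lay within 60 bp of a GENCODE start. From the RefSeq start of Apob, the nearest summits were 1020 and 1026 bp away in the stop cassette lists and 995 and 54109 bp in the wild-type lists. From that of Fga, all were at least 6923 bp away. Which genes are called within 1 kb thus depends on the annotation.

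The remaining genes had no summit near a start. Alb, which encodes the main carrier protein of plasma, and Afp, its fetal counterpart, stand side by side on chromosome 5 (90889915 to 90905629, ENSMUSG00000029368.9, and 90919740 to 90937933, ENSMUSG00000054932.3, both on the plus strand). For Alb the distances were 6473, 5717, 6575 and 6580 bp in the order given above. For Afp they were 10162, 10163, 10160 and 10174 bp. Fgb, the fibrinogen beta chain gene (chromosome 3, 82846169 to 82853725, minus strand, ENSMUSG00000033831.4), had distances of 5615, 5633, 5626 and 5635 bp. For Afp and Fgb the lists placed the nearest summit at nearly the same position. For Alb the summit at 5717 bp was a separate one of low percentile (1.60), held by stop cassette replicate 2 alone. Ahsg (chromosome 16, 22892115 to 22899511, ENSMUSG00000022868.5) had distances of 33725, 11001, 33721 and 10896 bp. Ttr, the carrier of thyroxine and retinol-binding protein (chromosome 18, 20823751 to 20832825, ENSMUSG00000061808.3), had 9560, 2970, 24342 and 2953 bp. In Ahsg and Ttr the replicate 2 list of each genotype held the closer summit, and it was the longer list within each genotype. Stop cassette replicate 1, with 79083 summits, lacked the closer summits that wild-type replicate 2 held with 68471. The part of list length was not tested. Over the 10 genes, the median distance was 8016.5 and 4301.5 bp in the stop cassette lists and 6100.5 and 8377 bp in the wild-type lists. Over all protein-coding genes it was 121, 108, 134 and 117 bp.

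Serpina1a, one of several tandem copies of the mouse antitrypsin gene (chromosome 12, 105091799 to 105104137, minus strand, ENSMUSG00000066366.7), was the farthest from any summit. The nearest was 164234, 203888, 129520 and 129919 bp away. No list held a summit within 50 kb of its body, whereas 88.5% of all protein-coding genes had one in at least 1 list. Of the stretches of 50 bases in its window, 51.0% occurred once in the assembled chromosomes, and of those in its body 49.9%. Within 1 kb of its starts the share was higher, 66.0%. In the windows of the other 9 genes, the share was between 87.4% (Ttr) and 98.2% (Apoa1). The submitters kept reads of mapping quality 30, per the peak names, and reads from near-identical copies tend to fall under such a limit. Its part in the lack of summits was not tested. At 100 bases, the share was 78.6% for the Serpina1a window and 95.2% within 1 kb of its starts. The other windows had at least 90.6%.

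The surroundings of the genes were not empty, but such windows are far wider than the 1 kb around a start and are not compared with it. Within 50 kb of the gene bodies, 9 of 10 genes had a summit in every list. This was near the background of all protein-coding genes, 84.7% and 87.5% in the stop cassette lists and 83.4% and 85.1% in the wild-type lists. The median number of summits in such a window was 4 and 6 in the stop cassette lists and 2.5 and 3.5 in the wild-type lists. The median over all protein-coding genes was 8, 10, 5 and 7, so the liver gene windows held fewer in each list. Merged where they overlap, the windows covered 0.943 Mb. The summits per Mb were 1.39, 1.44, 1.25 and 1.52 times those of the assembled genome, a mean of 1.40 ± 0.112 (SD, n = 4 libraries). Without Apoa2, the gene with the fullest window, the mean was 0.993 ± 0.0851.

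**Figure D2:**
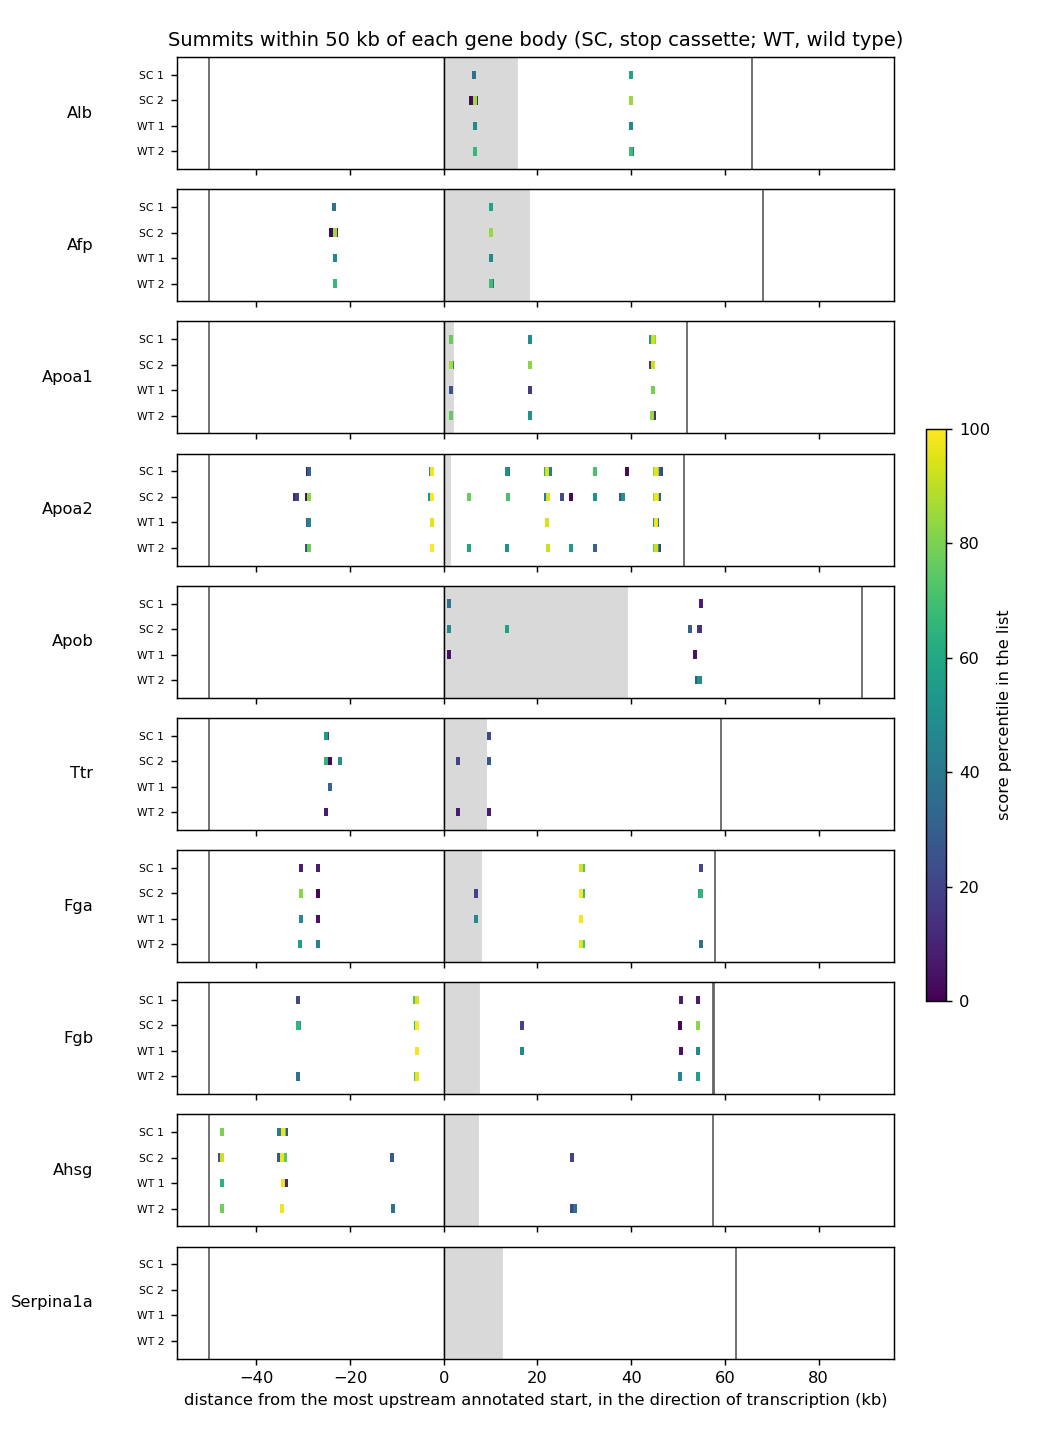
Summits within 50 kb of each gene body, by distance in kb from the most upstream annotated start (black line) in the direction of transcription; grey bands are gene bodies, thin lines the window ends, and colour the score percentile in the list of each library. The starts themselves are free of summits, the windows of Alb and Afp hold the same summits, as do those of Fga and Fgb, and Serpina1a has none.

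The windows differed widely among themselves. Apoa2 had 17 and 19 summits in the stop cassette lists and 7 and 14 in the wild-type lists, and its mean count stood at the 83.3 percentile of all protein-coding genes. Alb and Afp share their summits, 2 and 4 in the stop cassette lists and 2 and 3 in the wild-type lists, at the 22.3 percentile. Fga and Fgb likewise share theirs, 5 and 7 in the stop cassette lists and 4 and 5 in the wild-type lists, at the 35.5 percentile. Ahsg had 5 and 8 against 4 and 5, Apoa1 5 and 5 against 3 and 4, Apob 2 and 5 against 2 and 3, and Ttr 3 and 7 against 1 and 3 summits. Serpina1a, with 0 in each list, stood at the 5.75 percentile.

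The strongest summits in these windows lay at the promoters of neighbours. Summits of the 4 lists were extended by 250 bp on each side and merged, which gave 38 regions in the windows, of which 16 were held by all 4 lists and 10 by 1 list. Of the 38, 12 lay within 1 kb of a start of another gene and 2 within 1 kb of a start of Apob or Fga. The highest mean percentiles over the 4 lists belonged to the starts of Tomm40l (98.1), of the divergent pair Tbccd1 and Dnajb11 beside Ahsg (97.3) and of Plrg1 (97.1). B4galt3 in the Apoa2 window, which encodes a galactosyltransferase, stood at 96.0. Zfp259 beside Apoa1 stood at 87.2 and Pcp4l1 beside Apoa2 at 59.1. Away from starts, the highest was a region in an intron of Tbccd1 (78.5), held by all 4 lists. Starts of Adamts4 and Fetub, the latter a liver gene next to Ahsg, had weaker summits in 2 lists each. Among single summits in the windows, 59.0% and 41.8% of those in the stop cassette lists and 60.9% and 45.9% of those in the wild-type lists lay within 1 kb of an annotated start. Over the whole lists the shares were 47.2%, 38.1%, 57.9% and 50.2%.

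Called and uncalled promoters stood close together. In the windows, 20 other protein-coding genes had a start, of which 9 were called in all 4 lists, 2 in some and 9 in none. One of the 9 called genes, Sik3, has its called starts outside the window. The 9 without a call, named here after their values were seen, are Fgg, Afm, Apoc3, Apoa4, Apoa5 and Serpina1c, which are liver genes of the same clusters, the nuclear receptor gene Nr1i3, Fcer1g and Gm10269. Fgb, 5719 bp from the Plrg1 start, and Apoa2, 2540 bp from that of Tomm40l, were without a call in all 4 lists.

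Outside promoters, 9 regions held by all 4 lists were farther than 1 kb from any annotated start, and 3 of them lay inside liver genes. The region in Alb (90896138 to 90897016) had its strongest summit, that of stop cassette replicate 2, in an intron, 6605 bp downstream of the start. Intron or exon was read at the strongest summit only, and the wild-type summits lay at 90896490 and 90896495. The percentiles of the Alb region were 36.8 and 85.7 with the stop cassette and 46.6 and 66.7 in wild type. The region in Afp (90929650 to 90930268) also had its strongest summit in an intron, 10163 bp downstream. Its percentiles were 58.0 and 84.8 with the stop cassette and 46.6 and 68.6 in wild type. The third was the region in the Apoa1 coding exon (46037906 to 46038663). In each of the 3, stop cassette replicate 2, the longest list, had the highest percentile. The lists differ in length, so these ranks are not compared between genotypes. The 3 regions are the only parts of these genes held by every list, and their strongest summits are printed with 100 bases on either side, plus strand of mm9. In Alb the summit of stop cassette replicate 1, at 90896388, lies just before the printed stretch. Capitals mark a match on either strand to a core of the motif of the insulator protein CTCF, which reads CC, then 3 bases of any kind, AG, 2 bases of any kind and GGC.
Alb region, chr5:90896420-90896619, plus strand: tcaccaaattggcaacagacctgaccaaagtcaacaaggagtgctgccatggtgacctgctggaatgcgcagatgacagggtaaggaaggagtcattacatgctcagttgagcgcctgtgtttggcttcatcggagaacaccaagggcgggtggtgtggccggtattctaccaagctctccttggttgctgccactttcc
Afp region, chr5:90929803-90930002, plus strand: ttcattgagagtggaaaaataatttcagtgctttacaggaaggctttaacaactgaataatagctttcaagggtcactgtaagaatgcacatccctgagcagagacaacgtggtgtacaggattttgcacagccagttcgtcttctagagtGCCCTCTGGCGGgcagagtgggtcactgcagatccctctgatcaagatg
Apoa1 region, chr9:46038061-46038260, plus strand: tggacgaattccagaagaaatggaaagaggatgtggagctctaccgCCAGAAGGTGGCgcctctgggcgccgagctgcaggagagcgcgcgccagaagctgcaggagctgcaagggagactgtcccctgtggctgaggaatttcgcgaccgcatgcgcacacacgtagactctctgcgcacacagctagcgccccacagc

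The core matched in the Afp and Apoa1 sequences and not in that of Alb. In stretches of 300 bases around the strongest summit, it matched in 9 of the 38 regions of the liver gene windows and in 17.5% of 74578 regions of the 4 lists. The 300 bases at Apoa1 had a GC content of 60.7% and a CpG ratio (observed over expected) of 0.694. At Alb and Afp the CpG ratios were 0.342 and 0.308, and the median of all regions was 0.287.

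Across all protein-coding genes, promoters with more CpG dinucleotides were called more often, and the liver genes were set against genes of like CpG ratio. The CpG ratio of the 250 bases before the first start was between 0.0898 (Serpina1a) and 0.480 (Apob) in the liver genes, with a median of 0.193 against 0.496 over all promoters. Apob, the highest, had 9 CpGs in 250 bases, and Afp and Serpina1a had 1 each. Among the 8242 genes with a ratio in this range, 36.0% and 40.4% were called in the stop cassette lists, 32.3% and 35.6% in the wild-type lists and 41.9% in at least 1 list. The liver genes, at 10%, 20%, 20% and 0% per list and 2 of 10 in at least 1 list, were below these shares, though 10 genes make a coarse measure. Above the range, 91.5% and 93.7% of 11486 genes were called in the stop cassette lists, 89.9% and 91.9% in the wild-type lists and 94.3% in at least 1 list. In the bin from 0.1 to 0.2, which holds 4 of the liver genes (Afp, Fga, Apoa1 and Apoa2), 16.3% to 23.7% of all genes were called in a list. The first annotated start of Serpina1a lies 2365 bp upstream of the next, and at its other starts the ratio was 0.184 to 0.192. The neighbours called in all 4 lists ranged from 0.314 (Pcp4l1) to 1.15 (Dnajb11), and those with no call from 0.0651 (Apoa4) to 0.219 (Apoa5). Ahsg, Alb, Ttr and Apob had ratios of 0.343 to 0.480, above that of Pcp4l1, and no summit within 1 kb of the first start.

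**Figure D3:**
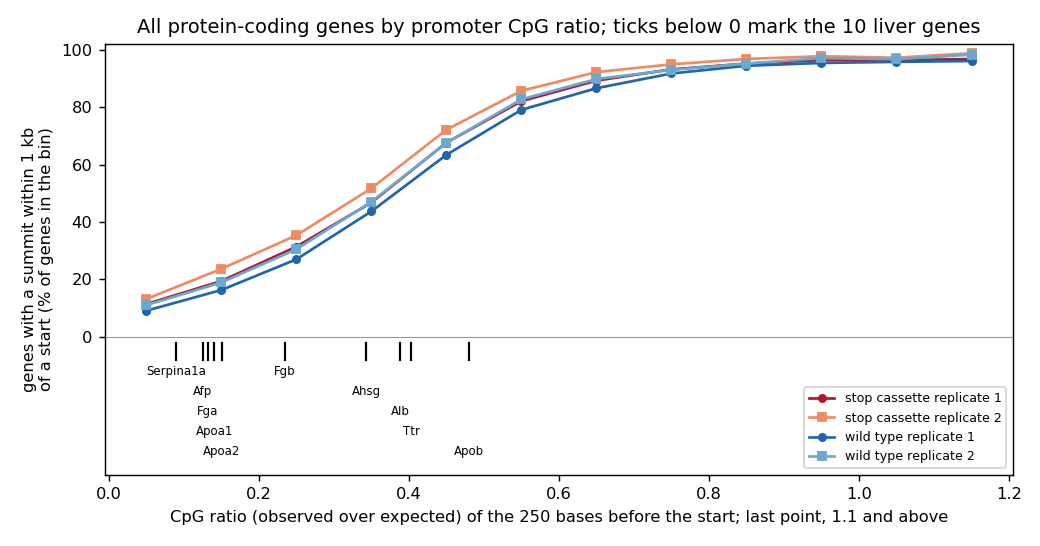
Percent of protein-coding genes with a summit within 1 kb of a start, by CpG ratio of the promoter in bins of 0.1, 1 line per library; black ticks below 0 mark the ratios of the 10 liver genes. The lines climb from 9.13% to 13.2% in the lowest bin to over 95% at the right, and all 10 ticks lie below 0.5.

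Further hepatic genes were read in the same way, from lists chosen with earlier results of these data known. Over all protein-coding genes, 61.5% and 64.5% were called in the stop cassette lists and 59.1% and 61.6% in the wild-type lists. Of 29 other secreted liver proteins, 5 and 6 were called in the stop cassette lists and 2 and 4 in the wild-type lists, and 22 in no list. Apoh and Rbp4 were called in all 4 lists, Itih1 in 3 and Fetub in 2. Rbp4 encodes the plasma carrier of retinol. Of 13 hepatic enzymes, 3 and 3 were called in the stop cassette lists and 1 and 1 in the wild-type lists. In both sets the stop cassette counts were higher without overlap, but the stop cassette lists are longer. How often sets of genes differ in this way was not computed, and no difference between genotypes is read from these counts. Arg1, the arginase of the urea cycle, was called in all 4, and Fbp1 and Hpd in 2 each. Of 17 hepatic transcription factors, 9 and 9 were called in the stop cassette lists and 7 and 9 in the wild-type lists, among them Cebpa, Cebpb, Foxa1 and Foxa3 in all 4. Per list, 41.2% to 52.9% of these 17 were called, nearer to the share of all genes. Hnf4a, which helps to define hepatocytes, was called in no list. Of a set of 10 hepatocyte markers that includes 7 of the liver genes, 0 to 2 were called per list, and Alb, Afp, Ttr, Apoa1, Ahsg, Hnf4a and Cps1 were among those called in none.

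The lists were checked against the labelled tissue with markers. All 11 widely expressed genes, among them Actb, B2m, Gapdh and Hprt, were called in all 4 lists. Of 10 limb mesenchyme genes, 9 and 8 were called in the stop cassette lists and 6 and 9 in the wild-type lists, with Hand2, Msx1, Msx2 and Pitx1 in all 4. Named after their values were seen, Tbx5, a gene of the forelimb, was called in 0 lists, Lmx1b in 2, and Tbx4 and Prrx2 in 3 each. Markers of blood (3 of 6 in each list), endothelium (1 to 3 of 6), surface ectoderm (3 or 4 of 6) and muscle precursors (2 or 4 of 4) and neural genes (4 or 5 of 5) were called too. Over all protein-coding genes 59.1% to 64.5% were called, so 6 of 10 limb genes in wild-type replicate 1 and the blood and ectoderm counts were near the background, and such calls say little about the tissue. The neural genes were called at 80% to 100% per list and the limb mesenchyme genes at 60% to 90%. From which cells the calls come was not tested.

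**Figure D4:**
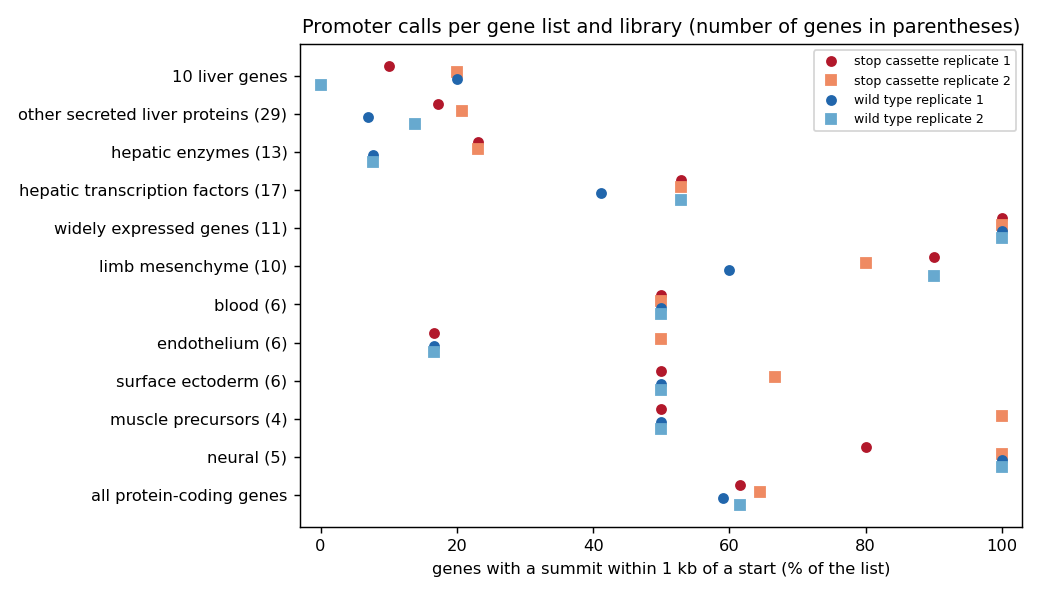
Percent of the genes of each list with a summit within 1 kb of a start, 1 point per library, with the number of genes in parentheses. The 10 liver genes, the other secreted liver proteins and the hepatic enzymes lie at or below 23.1%, the widely expressed genes at 100% and all protein-coding genes between 59.1% and 64.5%.

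Stop cassette and wild type were compared over the liver gene windows as a whole. The lists held 79083 and 107827 summits in the stop cassette libraries and 51701 and 68471 in wild type. In the windows there were 39 and 55 summits in the stop cassette lists and 23 and 37 in the wild-type lists. The counts did not overlap, with means of 47 ± 11.3 and 30 ± 9.90 (SD, n = 2 each). The difference of 17 summits gave p = 0.333 in a two-sided exact permutation test, the smallest value that 2 against 2 libraries allow. As a share of its list, this was 0.0493% (95% Wilson interval 0.0361% to 0.0674%) and 0.0510% (0.0392% to 0.0664%) with the stop cassette. In wild type it was 0.0445% (0.0296% to 0.0667%) and 0.0540% (0.0392% to 0.0745%). The shares overlapped, and the means of 0.0502% ± 0.00120 and 0.0493% ± 0.00675 (SD, n = 2 each) had a difference below the spread within wild type (exact permutation p = 1). With each list reduced to the 51701 highest-scoring summits, the windows held 26 and 23 against 23 and 29 summits, and the difference changed sign to -1.5. Intervals cover counting error only, and the sequencing depth is unknown.

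Single genes were compared in the same way. The window counts of the genotypes did not overlap in 2 of 10 liver genes, Apoa1 and Apoa2, with the stop cassette higher. Over all protein-coding genes this happened in 46.9%, and in 48.0% when either direction counted. The number of liver genes with a promoter call had a mean of 1.5 ± 0.707 with the stop cassette and 1 ± 1.41 without it (SD over 2 lists each), and the exact permutation test gave p = 1. Without wild-type replicate 2, which called none, the difference of 0.5 turned to -0.5. Among the 38 regions, both stop cassette lists and no wild-type list held 1, in an intron of Tbccd1 659 bp from its start, and no region was held by both wild-type lists alone. The Tbccd1 region had percentiles of 40.8 and 26.3, in lists longer than those of wild type. The share of such regions over the whole lists was not computed, so no difference between genotypes is read from these counts.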

How the data were processed

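ATAC-seq peak lists of 4 libraries of E11.5 limb cells were used, 2 per genotype, grouped by the labelled genotype. Each list holds the peaks of its own library, per the peak names, and gives summits of 1 bp and a score. The deposited score behaves as −log10 of a q-value, from its lowest value, which was 1.302 to 1.307 and corresponds to a q-value of 0.05. Reads were mapped to mm9, with Bowtie2 2.2.6 and Picard named, per the submitters' processing notes. Removal of duplicate and mitochondrial reads and a mapping quality of 30 are recorded in the deposited peak names. The peak caller and any shift of reads for the way the transposase binds are not given in the sources used here.

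Scores depend on depth, which is unknown, and were used as percentiles within a list, with tied scores at their midpoint. The exception was the stricter threshold, which set 1 score limit for all 4 lists and so may thin them unequally. Starts, bodies and sequences came from GENCODE M1 on NCBIM37, the same build. Genotypes were compared with exact permutation tests over libraries. The members and gene lists were chosen with earlier results of these data known. Named genes were the 10 liver genes, genes with a start within 1 kb of a counted summit, up to 4 genes per further list (those called in most lists first), and the 3 genes most like each called liver gene. Symbols Spi1 and Tfap2c were matched by an older symbol through RefSeq, and Sox1 had no match. Results for some items are not reported here. Uniqueness counted exact stretches of 50 and 100 bases on both strands. The assignment of summits to starts was tested on simulated lists. Alternatives were equal list length, only scores above 5.83 (the median when lists are pooled), other distances and windows, protein-coding transcripts alone, joining of summits closer than 200 bp, leaving out each library, and replicate numbers as pairs. Python 3.11.15, numpy 2.4.6, scipy 1.17.1 and numba 0.67.0 were used.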

Additional observations from a re-analysis of the deposited data

How the results depend on the processing

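The most upstream start alone and the omission of Apoa2 or Serpina1a were alternatives chosen after the data were seen. Equal list length turned the difference in promoter calls to -0.5 genes, that in window summits to -1.5 and that in window share to -0.00290 percentage points. The stricter threshold left 0 genes called and a difference of 0, with the Apob summit of stop cassette replicate 2 just below the limit. The window density was then 1.28 times the genome. At 500 bp, 1 gene was called and the difference was 0, and with the most upstream start both were 0. A window of 20 kb gave a share difference of -0.00250 percentage points and a density of 1.18. Without Apoa2 these were -0.00167 and 0.993, and without Serpina1a the density was 1.59. Leaving out each library in turn gave -0.5 to 1.5 for promoter calls, 9 to 25 for window summits, -0.00388 to 0.00567 percentage points for the share and 1.36 to 1.45 for the density, always with 2 genes called. The share changed sign without wild-type replicate 1 and promoter calls without wild-type replicate 2, and the latter difference was 0 without stop cassette replicate 2. The replicate block left the differences at 0.5 genes, 17 summits and 0.000899 percentage points, with exact p-values of 1, 0.5 and 1, and 0.5 is the smallest it can give. Same-numbered libraries had deviations with a correlation of 0.235 over 22367 gene windows, but the labels give no shared origin. The cause of the other changes was not tested. Fewer summits enter the longer lists at equal length by construction. Without read depth, a missing summit says only that none was called.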
